A study of Homo sapiens with 10 samples.

Results

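The 56 genes described here act in mitosis and in entry into it: cyclins, CDK1 and its regulators, cell-cycle transcription factors, the spindle checkpoint, the kinetochore and centromere, the chromosomal passenger complex, and condensin with other proteins of the mitotic chromosome. They were listed by name for these functions, and all 56 had a probe set on the array, among 19775 genes with one. MM.1S is an established line of human multiple myeloma, and its RNA was taken 48 h after lentiviral delivery of a short hairpin RNA and hybridized to 10 Affymetrix 3' expression arrays. The 5 groups held 2 arrays each. They were shDNMT1#2 and shDNMT1#1, which target the maintenance DNA methyltransferase DNMT1, shHDAC3#2 and shHDAC3#1, which target the histone deacetylase HDAC3, and the luciferase hairpin shLuc as control. All groups, shLuc included, carried a lentiviral hairpin, and all came from 1 cell line. The labels name shLuc as the control of the HDAC3 hairpins and name no other control, so a batch of the DNMT1 arrays and the DNMT1 hairpins cannot be told apart, whether they are set against shLuc or against the HDAC3 arrays. Nothing in the labels says that the replicates were separate cultures, so the p-values rest on a spread between arrays that may be technical only.

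Cyclin-bound CDK1 drives cells into mitosis, where condensin compacts the chromosomes and kinetochores, built on centromeres that carry the histone variant CENPA, attach them to spindle microtubules. The spindle checkpoint holds back the anaphase-promoting complex until every kinetochore is attached, and securin and cyclin B are then destroyed. Transcripts of most of these genes accumulate in the later part of the cell cycle under the MuvB complex with MYBL2 and FOXM1, and are repressed by the DREAM complex in resting cells. Both complexes reach DNA through the cell cycle genes homology region (CHR), and NF-Y binds the CCAAT boxes that often lie near it.

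Promoters are shown to let words shared between members be seen, although not all members moved together. The RefSeq table (GRCh38.p14) held a promoter of 45 members, and 10 of these have more than 1 listed start. Each word was searched on both strands in 300 bases, 250 before to 50 after the start. With the first-listed start, 30 of 45 members (66.7%) hold a CHR word, TTTGAA or TTTAAA, against 24.3% of all 27305 genes. A CCAAT box is in 31 (68.9%), against 35.7% of all genes, and 2 or more in 20 (44.4%), against 11.3%. An E2F word (TTTGGCGC, TTTCCCGC, TTTCGCGC or TTTGCCGC) is in 5 (11.1%), against 3.33%. These shares were computed under 3 rules for genes with several starts, added after the first values had been seen. With the last-listed start the CHR share is 66.7% against 24.7%, and with any listed start 71.1% against 27.9%; the CCAAT shares are 71.1% against 35.4% and 73.3% against 39.7%. The rule matters for how changes split by CHR word. In shDNMT1#2 the median log2 change of members with and without one is -1.10 and -0.59 by the first-listed start, -0.996 and -0.77 by the last-listed, and -0.996 and -0.60 by any. In shHDAC3#2 it is -1.003 and -0.60, -0.96 and -0.89, and -0.96 and -0.80. In shDNMT1#1 it is -0.41 and -0.42 under every rule, and in shHDAC3#1 -0.29 or -0.28 with a CHR word and -0.26 without one. No test was made of this split, and a word is a description of these bases, not a site shown to be bound. No other form of the CHR was searched.

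The 6 printed promoters show 4 genes that fell in 3 or 4 groups, a gene that fell in all 4 groups with CCAAT boxes and no CHR word (SKA2), and a gene that was called in no group (SPC24). They were picked after their words and changes had been seen, from genes with 1 listed start; CDK1 was left out because its 2 listed starts hold different words. Capitals mark CHR words and CCAAT boxes on either strand (ATTGG is the reverse complement of CCAAT), and each runs 150 bases before to 50 after the start. CCNB1 is at chr5:69167000-69167199 on the plus strand. CCNB2 is at chr15:59104996-59105195 on the plus strand. BUB1B is at chr15:40160919-40161118 on the plus strand. MKI67 is at chr10:128126374-128126573 on the minus strand. SKA2 is at chr17:59155137-59155336 on the minus strand. SPC24 is at chr19:11155733-11155932 on the minus strand.
CCNB1: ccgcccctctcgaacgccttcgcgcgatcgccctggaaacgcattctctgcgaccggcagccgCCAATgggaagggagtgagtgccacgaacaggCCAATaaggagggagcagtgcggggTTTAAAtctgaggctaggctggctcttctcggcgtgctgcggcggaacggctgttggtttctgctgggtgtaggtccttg
CCNB2: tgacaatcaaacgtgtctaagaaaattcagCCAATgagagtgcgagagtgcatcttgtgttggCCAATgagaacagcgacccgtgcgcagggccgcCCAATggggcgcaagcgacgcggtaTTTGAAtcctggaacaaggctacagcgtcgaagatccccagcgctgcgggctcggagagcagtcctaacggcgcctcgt
BUB1B: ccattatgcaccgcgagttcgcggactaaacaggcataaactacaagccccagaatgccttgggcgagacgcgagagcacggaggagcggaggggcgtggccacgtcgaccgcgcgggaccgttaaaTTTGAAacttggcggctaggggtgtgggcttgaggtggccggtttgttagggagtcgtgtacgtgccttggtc
MKI67: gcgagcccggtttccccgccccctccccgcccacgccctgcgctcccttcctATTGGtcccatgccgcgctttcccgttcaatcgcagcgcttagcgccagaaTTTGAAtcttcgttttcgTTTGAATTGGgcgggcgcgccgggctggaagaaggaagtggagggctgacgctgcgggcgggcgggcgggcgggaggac
SKA2: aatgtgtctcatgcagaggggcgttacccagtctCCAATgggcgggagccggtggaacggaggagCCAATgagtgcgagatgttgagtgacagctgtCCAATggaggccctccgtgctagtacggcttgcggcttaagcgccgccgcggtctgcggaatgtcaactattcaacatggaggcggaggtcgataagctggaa
SPC24: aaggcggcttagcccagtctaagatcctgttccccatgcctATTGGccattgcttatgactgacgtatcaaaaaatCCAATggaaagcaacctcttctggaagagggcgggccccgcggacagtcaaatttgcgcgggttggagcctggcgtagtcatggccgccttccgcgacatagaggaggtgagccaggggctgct

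**Figure D1:**
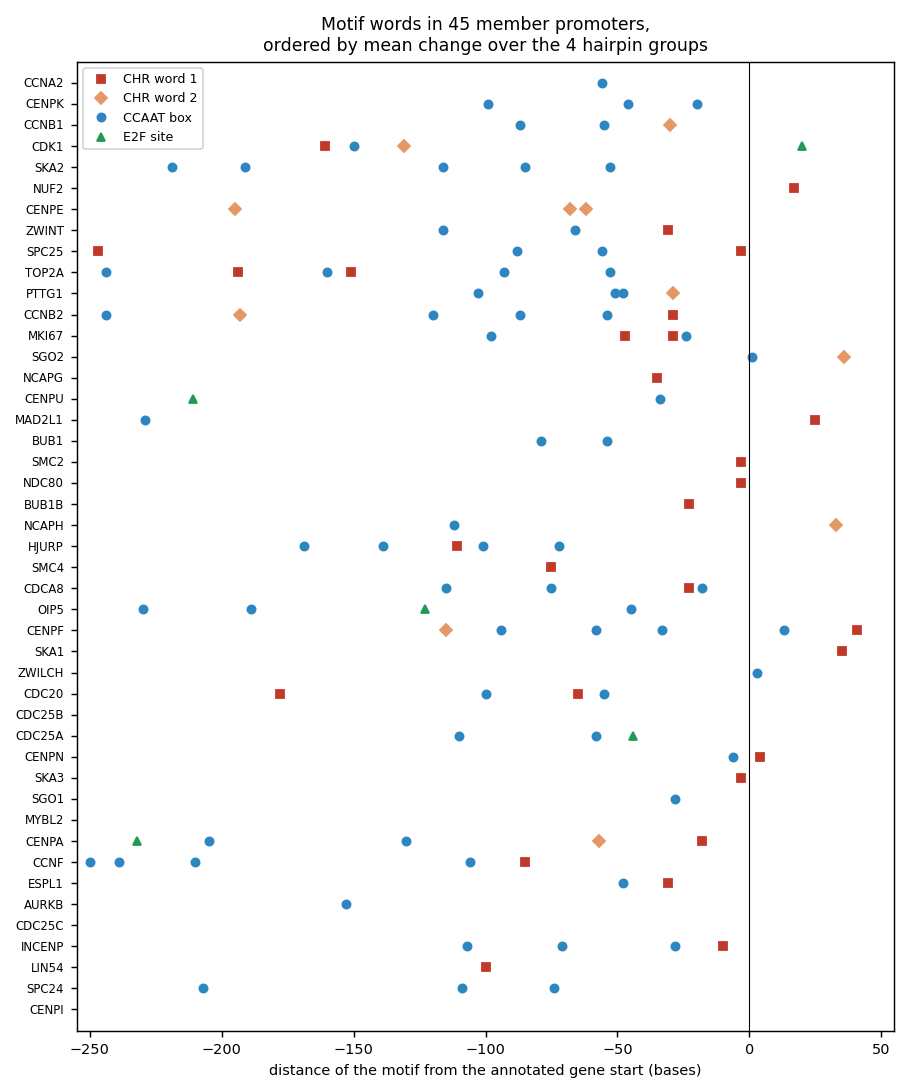
Positions of CHR words (squares for the form that holds a G, word 1, and diamonds for the other, word 2), CCAAT boxes (circles) and E2F words (triangles), as distance in bases from the annotated gene start, in the first-listed promoter of 45 members. Each line is 1 member, ordered by its mean log2 change over the 4 hairpin groups, and 30 of the 45 hold a CHR word.

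Both targets were checked first. DNMT1 signal, in log2 units, was 6.27 and 6.07 in shDNMT1#2, 5.76 and 6.004 in shDNMT1#1, 7.64 and 7.89 in shHDAC3#2, 7.14 and 7.29 in shHDAC3#1, against 8.49 and 8.33 in shLuc. It was thus below shLuc in all 8 hairpin arrays, with changes of -2.24 ± 0.12 in shDNMT1#2 and -2.53 ± 0.12 in shDNMT1#1, and of -0.65 ± 0.12 in shHDAC3#2 and -1.20 ± 0.12 in shHDAC3#1 (log2, ± SE). HDAC3 signal was 6.39 and 6.28 in shDNMT1#2, 7.09 and 6.53 in shDNMT1#1, 5.83 and 5.52 in shHDAC3#2, 5.97 and 5.72 in shHDAC3#1, against 7.26 and 6.61 in shLuc. HDAC3 fell by 1.26 in shHDAC3#2 and 1.09 in shHDAC3#1, and also by 0.60 in shDNMT1#2 (adjusted p = 0.0186). Mean DNMT1 signal was 6.17 in shDNMT1#2 and 5.88 in shDNMT1#1, and mean HDAC3 signal was 5.67 in shHDAC3#2 and 5.85 in shHDAC3#1. The SD of the log2 values over all probe sets of an array was 1.84 to 1.91 in the 8 hairpin arrays and 1.93 to 1.94 in the shLuc arrays. The 3' minus 5' signal of ACTB, a measure of RNA integrity, was 0.98 and 1.02 in shHDAC3#1 and 0.63 to 0.81 in the other groups. All 8 plasma cell and myeloma markers had a mean signal over 5, with a median of 9.63. So did 1 of 4 T cell, 2 of 3 monocyte, 2 of 4 stromal and 4 of 5 epithelial markers measured, with the highest at 8.55 (COL1A1). The median over T cell, monocyte, stromal and epithelial marker lists lay between 4.73 and 6.34. The part of these array differences in the results was not tested, except that the spread of the arrays was entered as a covariate.

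No member was called higher in any hairpin group by the model as described, and many were called lower. In shHDAC3#1, other processing gave higher calls: CDC25A (0.34) and CENPF (0.31) with the mean of each gene's probe sets, CDC25A (0.32) and UBE2C (0.44) after further quantile normalization, and CENPU (0.55) without probe sets that can cross-hybridize. Of 56 members, 47 fell in shDNMT1#2, 29 in shDNMT1#1, 43 in shHDAC3#2 and 25 in shHDAC3#1, each against shLuc at a limma adjusted p under 0.05. The background in shDNMT1#2 was 15.2% of all genes called lower and 11.6% called higher. In shDNMT1#1 these shares were 6.81% and 1.34%, in shHDAC3#2 9.54% and 1.31%, and in shHDAC3#1 16.6% and 7.83%. The median log2 change of the members was -0.83 in shDNMT1#2, -0.41 in shDNMT1#1, -0.89 in shHDAC3#2 and -0.26 in shHDAC3#1, while the median of all genes lay between 0.05 and 0.08. The second hairpin of each target thus gave the larger shift, and 22 members were lower by at least 2-fold in shDNMT1#2 and 22 in shHDAC3#2, against 1 each in shDNMT1#1 and shHDAC3#1. Of all 19775 genes, 436, 114, 213 and 376 were that much lower in shDNMT1#2, shDNMT1#1, shHDAC3#2 and shHDAC3#1. In shHDAC3#1 the members' share was thus no larger than that of all genes. In all 4 groups 21 members were called lower, in 3 groups 11, in 2 groups 11 and in 1 group 5. The other 8, CDC25C, PKMYT1, LIN54, SGO1, SPC24, KNTC1, CENPI and INCENP, were called in none. These counts hold for the model as described, and most calls in shDNMT1#1 and shHDAC3#1 were lost under at least 1 alternative. With the mean of each gene's probe sets, 43, 21, 44 and 19 members were called lower in shDNMT1#2, shDNMT1#1, shHDAC3#2 and shHDAC3#1. All 4 comparisons share the same 2 shLuc arrays. Both arrays of a group lay below both shLuc arrays for 50, 40, 53 and 36 members in shDNMT1#2, shDNMT1#1, shHDAC3#2 and shHDAC3#1. Of all genes, 25.7%, 19.8%, 21.9% and 28% did so in the same order. A further 40.5%, 29.6%, 31.8% and 39.3% of all genes lay above both shLuc arrays. With 2 arrays per group, a lack of overlap with shLuc is thus common and does not by itself mark a change. In bulk RNA, fewer cycling cells and less RNA per cell cannot be told apart. With the SD of each array as a covariate, 1, 2, 23 and 0 members were called lower in shDNMT1#2, shDNMT1#1, shHDAC3#2 and shHDAC3#1, and the median member changes were -0.37, -0.18, -0.68 and 0.06. Without shLuc replicate 1 the counts for shDNMT1#1 and shHDAC3#1 were 7 and 8. Without shDNMT1#1 replicate 2 it was 13 in shDNMT1#1, and without shHDAC3#1 replicate 1 it was 8 in shHDAC3#1.

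**Figure D2:**
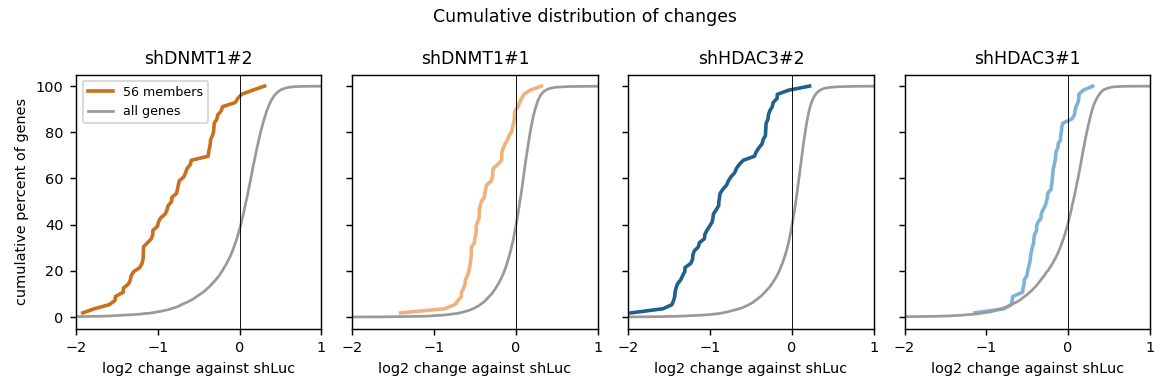
Cumulative percent of the 56 members and of all 19775 genes against the log2 change from shLuc, with 1 panel per hairpin group. The members' curve lies left of that of all genes, most widely in shDNMT1#2 and shHDAC3#2, where the members' medians were -0.83 and -0.89.

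**Figure D3:**
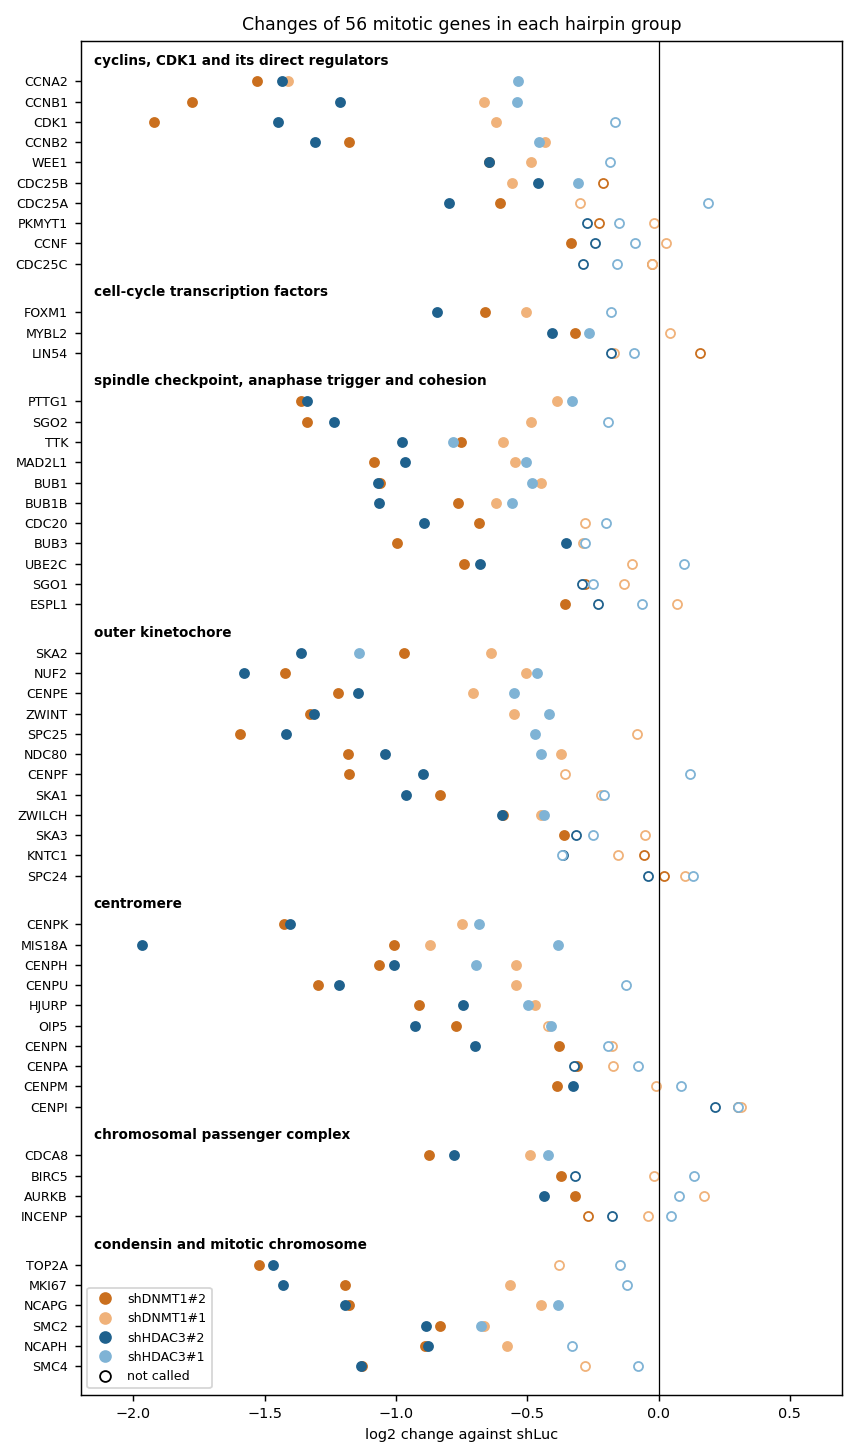
Log2 change against shLuc of each of the 56 members in the 4 hairpin groups, by role, with filled points for changes called at an adjusted p under 0.05 and open points for the others. No filled point lies above 0, and the points furthest left are MIS18A in shHDAC3#2 at -1.97 and CDK1 in shDNMT1#2 at -1.92.

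The cyclins and CDK1 showed some of the largest changes. Of the 10 genes of this group, 7 fell in shDNMT1#2, 6 in shDNMT1#1, 7 in shHDAC3#2 and 4 in shHDAC3#1. CDK1, the kinase that drives mitotic entry, had a log2 signal of 7.81 and 7.81 in shDNMT1#2, 9.27 and 8.95 in shDNMT1#1, 8.17 and 8.39 in shHDAC3#2, 9.48 and 9.65 in shHDAC3#1, against 9.73 and 9.73 in shLuc. The shDNMT1#2 arrays were lowest and shHDAC3#2 next, and no hairpin array reached the shLuc arrays. Its log2 changes were -1.92 ± 0.11 in shDNMT1#2, -0.62 ± 0.11 in shDNMT1#1, -1.45 ± 0.11 in shHDAC3#2 and -0.17 ± 0.11 in shHDAC3#1 (± SE). The shDNMT1#2 signal was 26.4% of the shLuc signal (adjusted p = 4.33e-11), whereas shHDAC3#1 was not called (adjusted p = 0.261). CCNA2, cyclin A2, which acts in S phase and early mitosis, had 6.70 and 6.75 in shDNMT1#2, 6.91 and 6.78 in shDNMT1#1, 6.68 and 6.96 in shHDAC3#2, 7.63 and 7.80 in shHDAC3#1, against 8.37 and 8.13 in shLuc. All hairpin arrays lay below shLuc, with the shHDAC3#1 arrays the nearest to it. CCNA2 was called lower in all 4 groups, with changes of -1.53 ± 0.12 in shDNMT1#2, -1.41 ± 0.12 in shDNMT1#1, -1.43 ± 0.12 in shHDAC3#2 and -0.54 ± 0.12 in shHDAC3#1. CCNB1, the main mitotic cyclin, had 6.79 and 6.83 in shDNMT1#2, 8.04 and 7.79 in shDNMT1#1, 7.32 and 7.42 in shHDAC3#2, 8.02 and 8.08 in shHDAC3#1, against 8.76 and 8.41 in shLuc. No hairpin array overlapped shLuc. The changes of CCNB1 were -1.78 ± 0.12 in shDNMT1#2, -0.67 ± 0.12 in shDNMT1#1, -1.21 ± 0.12 in shHDAC3#2 and -0.54 ± 0.12 in shHDAC3#1, all called lower. A second CCNB1 probe set gave -1.58 in shDNMT1#2, -0.55 in shDNMT1#1, -1.17 in shHDAC3#2 and 0.22 in shHDAC3#1, so the shHDAC3#1 change depended on the probe set. CCNB2, a second B-type cyclin, had 7.34 and 7.32 in shDNMT1#2, 8.14 and 8.01 in shDNMT1#1, 7.02 and 7.38 in shHDAC3#2, 7.99 and 8.11 in shHDAC3#1, against 8.52 and 8.50 in shLuc. Its groups did not overlap shLuc, and it fell in all 4, by 1.18, 0.43, 1.31 and 0.46 on the log2 scale in shDNMT1#2, shDNMT1#1, shHDAC3#2 and shHDAC3#1. A dimmer CCNB2 probe set with a mean signal of 6.15 gave 0.16, -0.02, 0.08 and 0.13 in the same order.

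The phosphatases and kinases that set CDK1 activity were called in 0 to 3 groups each. CDC25A, a phosphatase that activates CDK complexes, had 7.49 and 7.26 in shDNMT1#2, 7.64 and 7.72 in shDNMT1#1, 6.99 and 7.37 in shHDAC3#2, 8.09 and 8.24 in shHDAC3#1, against 8.07 and 7.88 in shLuc. The shHDAC3#1 arrays lay above both shLuc arrays, and the other groups below them. CDC25A was called lower in shDNMT1#2 (-0.60 ± 0.12) and shHDAC3#2 (-0.80 ± 0.12) and not in shDNMT1#1 (-0.30 ± 0.12) or shHDAC3#1 (0.19 ± 0.12). A second CDC25A probe set gave 0.25 in shDNMT1#2, 0.04 in shDNMT1#1, -0.05 in shHDAC3#2 and 0.34 in shHDAC3#1. CDC25B, which acts at mitotic entry, had 7.88 and 7.92 in shDNMT1#2, 7.58 and 7.53 in shDNMT1#1, 7.69 and 7.62 in shHDAC3#2, 7.81 and 7.80 in shHDAC3#1, against 8.29 and 7.93 in shLuc. All hairpin arrays lay below shLuc. It fell in shDNMT1#1 (-0.56 ± 0.11), shHDAC3#2 (-0.46 ± 0.11) and shHDAC3#1 (-0.31 ± 0.11), and was not called in shDNMT1#2 (-0.21 ± 0.11). WEE1, the kinase that inhibits CDK1, had 7.77 and 7.89 in shDNMT1#2, 8.14 and 7.84 in shDNMT1#1, 7.79 and 7.87 in shHDAC3#2, 8.19 and 8.39 in shHDAC3#1, against 8.63 and 8.32 in shLuc. The shHDAC3#1 arrays overlapped shLuc and the others lay below it. WEE1 fell in shDNMT1#2 (-0.65 ± 0.12), shDNMT1#1 (-0.48 ± 0.12) and shHDAC3#2 (-0.64 ± 0.12). CDC25C, the third member of that phosphatase family, had 5.81 and 6.01 in shDNMT1#2, 5.99 and 5.83 in shDNMT1#1, 5.48 and 5.82 in shHDAC3#2, 5.92 and 5.64 in shHDAC3#1, against 5.81 and 6.06 in shLuc. Every hairpin group overlapped shLuc, and none was called. CCNF, cyclin F, a substrate receptor of a ubiquitin ligase, was called lower only in shDNMT1#2 (-0.33 ± 0.11). A dimmer CCNF probe set gave 0.31 in shDNMT1#2, 0.12 in shDNMT1#1, -0.03 in shHDAC3#2 and -0.06 in shHDAC3#1, so the shDNMT1#2 change depended on the probe set. PKMYT1, a second inhibitory kinase of CDK1, was called in no group, with changes between -0.27 and -0.02.

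**Figure D4:**
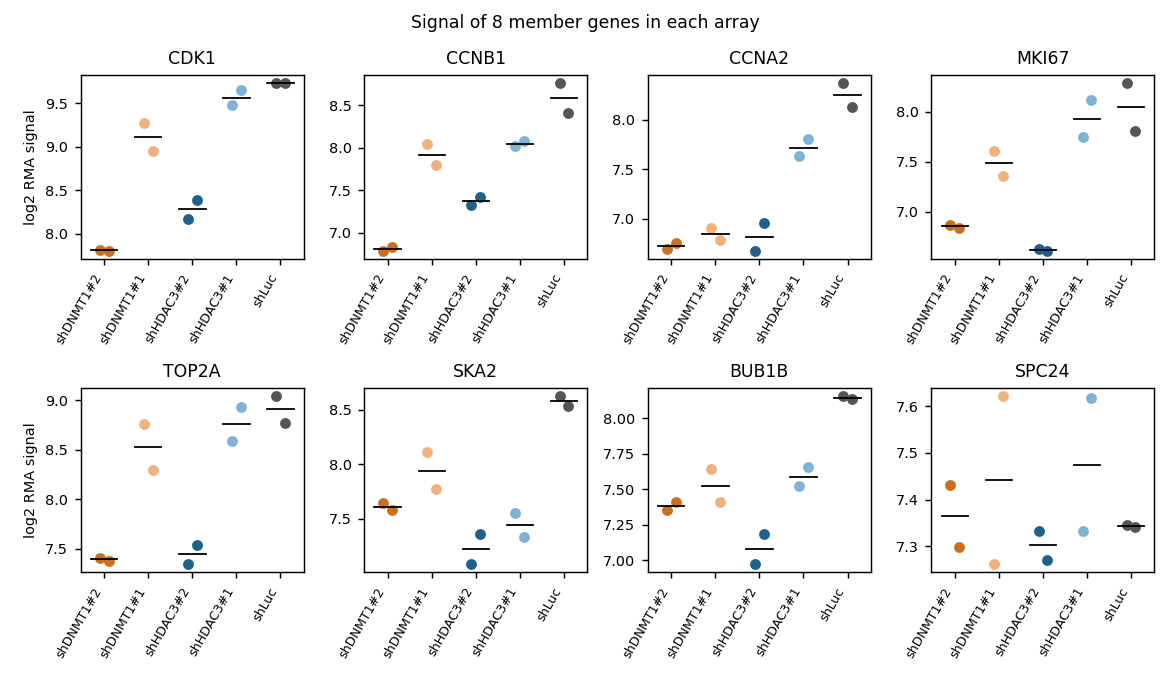
Log2 RMA signal of 8 members in each of the 10 arrays, with points for single arrays, lines for group means, a separate scale in each panel and shLuc at its right. CDK1, MKI67 and TOP2A are lowest in shDNMT1#2 and shHDAC3#2, SKA2 is below shLuc in all hairpin groups, and the SPC24 values of 3 hairpin groups overlap shLuc.

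Of the 3 transcription factors, 2 fell in shDNMT1#2, 1 in shDNMT1#1, 2 in shHDAC3#2 and 1 in shHDAC3#1. The single genes are 33.3%, against 6.81% of all genes in shDNMT1#1 and 16.6% in shHDAC3#1. FOXM1, which activates late cell-cycle genes, had 7.01 and 6.90 in shDNMT1#2, 7.02 and 7.21 in shDNMT1#1, 6.67 and 6.88 in shHDAC3#2, 7.40 and 7.48 in shHDAC3#1, against 7.68 and 7.56 in shLuc. No hairpin array overlapped shLuc. Its changes were -0.66 ± 0.11 in shDNMT1#2, -0.50 ± 0.11 in shDNMT1#1, -0.84 ± 0.11 in shHDAC3#2 and -0.18 ± 0.11 in shHDAC3#1, with shHDAC3#1 not called. MYBL2, the B-Myb protein that joins MuvB in S phase, had 7.68 and 7.69 in shDNMT1#2, 8.04 and 8.04 in shDNMT1#1, 7.59 and 7.59 in shHDAC3#2, 7.75 and 7.72 in shHDAC3#1, against 8.03 and 7.97 in shLuc. The shDNMT1#1 arrays lay above shLuc and the other 3 groups below it. MYBL2 fell in shDNMT1#2 (-0.32 ± 0.09), shHDAC3#2 (-0.41 ± 0.09) and shHDAC3#1 (-0.26 ± 0.09). LIN54, the subunit of MuvB that binds the CHR, had 5.90 and 5.68 in shDNMT1#2, 5.57 and 5.36 in shDNMT1#1, 5.37 and 5.54 in shHDAC3#2, 5.60 and 5.48 in shHDAC3#1, against 5.59 and 5.68 in shLuc. The shDNMT1#2 arrays were above shLuc, shDNMT1#1 and shHDAC3#2 below it, and no change was called.

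Checkpoint and anaphase genes fell widely with the second hairpin of each target: of 11 members, 10 in shDNMT1#2, 6 in shDNMT1#1, 9 in shHDAC3#2 and 5 in shHDAC3#1. BUB1B, the BubR1 protein of the mitotic checkpoint complex, had 7.36 and 7.41 in shDNMT1#2, 7.64 and 7.41 in shDNMT1#1, 6.97 and 7.18 in shHDAC3#2, 7.52 and 7.66 in shHDAC3#1, against 8.15 and 8.14 in shLuc. All hairpin arrays lay below shLuc. It was called lower in every hairpin group, with changes of -0.76 ± 0.11 in shDNMT1#2, -0.62 ± 0.11 in shDNMT1#1, -1.07 ± 0.11 in shHDAC3#2 and -0.56 ± 0.11 in shHDAC3#1. MAD2L1, which binds CDC20 in that complex, had 8.01 and 8.13 in shDNMT1#2, 8.86 and 8.35 in shDNMT1#1, 8.07 and 8.30 in shHDAC3#2, 8.61 and 8.68 in shHDAC3#1, against 9.19 and 9.11 in shLuc. Again no hairpin array reached shLuc. MAD2L1 fell by 1.08 in shDNMT1#2, 0.55 in shDNMT1#1, 0.97 in shHDAC3#2 and 0.50 in shHDAC3#1. BUB3, which docks BUB1 and BUB1B at kinetochores, had 8.90 and 8.94 in shDNMT1#2, 9.72 and 9.53 in shDNMT1#1, 9.49 and 9.64 in shHDAC3#2, 9.49 and 9.78 in shHDAC3#1, against 9.93 and 9.90 in shLuc. All hairpin arrays lay below shLuc, shDNMT1#2 furthest. BUB3 was called lower in shDNMT1#2 (-0.995 ± 0.10, adjusted p = 2.54e-07) and shHDAC3#2 (-0.35 ± 0.10, adjusted p = 0.0262). Of 6 BUB3 probe sets, the 4 brightest were below 0 in every group, and the 2 dimmest above 0 in every group. CDC20, the activator of the anaphase-promoting complex that the checkpoint inhibits, had 6.99 and 6.86 in shDNMT1#2, 7.32 and 7.33 in shDNMT1#1, 6.59 and 6.83 in shHDAC3#2, 7.30 and 7.51 in shHDAC3#1, against 7.67 and 7.55 in shLuc. The groups did not overlap shLuc. CDC20 was called in shDNMT1#2 (-0.68 ± 0.11) and shHDAC3#2 (-0.89 ± 0.11). PTTG1, securin, had 8.23 and 8.16 in shDNMT1#2, 9.23 and 9.12 in shDNMT1#1, 8.05 and 8.39 in shHDAC3#2, 9.13 and 9.33 in shHDAC3#1, against 9.66 and 9.46 in shLuc. The shDNMT1#2 and shHDAC3#2 arrays lay lowest and no hairpin array overlapped shLuc. PTTG1 fell in all 4 groups, with changes of -1.36 ± 0.11 in shDNMT1#2, -0.39 ± 0.11 in shDNMT1#1, -1.34 ± 0.11 in shHDAC3#2 and -0.33 ± 0.11 in shHDAC3#1, although further quantile normalization put the shHDAC3#1 change at 0.0314. ESPL1, separase, which securin inhibits, had 6.73 and 7.06 in shDNMT1#2, 7.34 and 7.29 in shDNMT1#1, 6.97 and 7.07 in shHDAC3#2, 7.20 and 7.17 in shHDAC3#1, against 7.30 and 7.19 in shLuc. It lay below shLuc in shDNMT1#2 and shHDAC3#2, overlapped it in the other groups, and was called in shDNMT1#2 alone (-0.36 ± 0.11). A second ESPL1 probe set of similar brightness gave -0.80 in shDNMT1#2, -0.23 in shDNMT1#1, -0.48 in shHDAC3#2 and -0.47 in shHDAC3#1. Of the other members, TTK, the MPS1 checkpoint kinase, fell in all 4 groups, with changes between -0.98 and -0.59. BUB1, the kinase that recruits the other checkpoint proteins, also fell in all 4, between -1.07 and -0.45, although a second probe set of similar brightness gave 0.17 in shDNMT1#2, 0.19 in shDNMT1#1, 0.17 in shHDAC3#2 and 0.17 in shHDAC3#1. SGO2, a protector of centromeric cohesion, fell in 3 groups, by 1.34 in shDNMT1#2, 0.48 in shDNMT1#1 and 1.24 in shHDAC3#2. UBE2C, a ubiquitin-conjugating enzyme of the anaphase-promoting complex, fell in shDNMT1#2 (-0.74 ± 0.11) and shHDAC3#2 (-0.68 ± 0.11). SGO1, also a cohesion protector, was called in none, with changes between -0.29 and -0.13.

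In the outer kinetochore, 10 of 12 members fell in shDNMT1#2, 6 in shDNMT1#1, 9 in shHDAC3#2 and 7 in shHDAC3#1. NDC80, which binds microtubules, had 7.13 and 7.24 in shDNMT1#2, 8.08 and 7.92 in shDNMT1#1, 7.18 and 7.48 in shHDAC3#2, 7.91 and 7.94 in shHDAC3#1, against 8.44 and 8.30 in shLuc. No hairpin array overlapped shLuc. NDC80 was called lower in all 4 groups, with changes of -1.18 ± 0.11 in shDNMT1#2, -0.37 ± 0.11 in shDNMT1#1, -1.04 ± 0.11 in shHDAC3#2 and -0.45 ± 0.11 in shHDAC3#1. NUF2, its partner in the NDC80 complex, had 6.74 and 6.60 in shDNMT1#2, 7.80 and 7.37 in shDNMT1#1, 6.42 and 6.61 in shHDAC3#2, 7.60 and 7.66 in shHDAC3#1, against 8.15 and 8.03 in shLuc. The shDNMT1#2 and shHDAC3#2 arrays were well below the other hairpin groups, which in turn lay below shLuc. NUF2 fell by 1.42 in shDNMT1#2, 0.51 in shDNMT1#1, 1.58 in shHDAC3#2 and 0.46 in shHDAC3#1. Of the other subunits of that complex, SPC25 fell in shDNMT1#2 (-1.59 ± 0.14), shHDAC3#2 (-1.42 ± 0.14) and shHDAC3#1 (-0.47 ± 0.14), and SPC24 in no group. SPC24 had 7.43 and 7.30 in shDNMT1#2, 7.26 and 7.62 in shDNMT1#1, 7.33 and 7.27 in shHDAC3#2, 7.33 and 7.62 in shHDAC3#1, against 7.34 and 7.34 in shLuc. Its shHDAC3#2 arrays lay just below shLuc and the other groups overlapped it. A second, dimmer SPC24 probe set gave -0.19 in shDNMT1#2, 0.41 in shDNMT1#1, -0.47 in shHDAC3#2 and -0.40 in shHDAC3#1. SKA2, of the SKA complex that holds kinetochores on microtubule ends, had 7.64 and 7.58 in shDNMT1#2, 8.11 and 7.77 in shDNMT1#1, 7.08 and 7.35 in shHDAC3#2, 7.55 and 7.33 in shHDAC3#1, against 8.62 and 8.54 in shLuc. All hairpin arrays lay below shLuc, with both HDAC3 hairpins low. SKA2 fell in all 4 groups, with changes of -0.97 ± 0.12 in shDNMT1#2, -0.64 ± 0.12 in shDNMT1#1, -1.36 ± 0.12 in shHDAC3#2 and -1.14 ± 0.12 in shHDAC3#1, the largest of any member in shHDAC3#1. SKA1 fell in shDNMT1#2 (-0.83 ± 0.19) and shHDAC3#2 (-0.96 ± 0.19), and SKA3 in shDNMT1#2 alone (-0.36 ± 0.11). CENPE, a kinesin that moves chromosomes to the spindle equator, had 5.44 and 5.49 in shDNMT1#2, 6.16 and 5.81 in shDNMT1#1, 5.55 and 5.54 in shHDAC3#2, 6.06 and 6.22 in shHDAC3#1, against 6.90 and 6.48 in shLuc. Its groups did not overlap shLuc, and it fell in all 4, with changes of -1.22 ± 0.14 in shDNMT1#2, -0.71 ± 0.14 in shDNMT1#1, -1.14 ± 0.14 in shHDAC3#2 and -0.55 ± 0.14 in shHDAC3#1. CENPF, a large protein of the outer kinetochore, had 7.12 and 7.36 in shDNMT1#2, 8.14 and 7.99 in shDNMT1#1, 7.67 and 7.39 in shHDAC3#2, 8.32 and 8.77 in shHDAC3#1, against 8.60 and 8.25 in shLuc. The shHDAC3#1 arrays overlapped shLuc and the others lay below. CENPF was called in shDNMT1#2 (-1.18 ± 0.14) and shHDAC3#2 (-0.90 ± 0.14), and a dimmer probe set gave -0.52 in shDNMT1#2, -0.37 in shDNMT1#1, -0.66 in shHDAC3#2 and 0.81 in shHDAC3#1. ZWINT, which links the outer kinetochore to the RZZ complex, fell in all 4 groups, between -1.33 and -0.42. Of the RZZ subunits, which bring dynein and checkpoint proteins to kinetochores, ZWILCH fell in all 4, between -0.60 and -0.44, and KNTC1 in none, between -0.37 and -0.06.

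Of 10 centromere genes, 9 fell in shDNMT1#2, 5 in shDNMT1#1, 8 in shHDAC3#2 and 5 in shHDAC3#1. CENPA, the histone H3 variant of centromeres, had 6.13 and 6.02 in shDNMT1#2, 6.16 and 6.27 in shDNMT1#1, 6.05 and 6.08 in shHDAC3#2, 6.31 and 6.31 in shHDAC3#1, against 6.42 and 6.35 in shLuc. All hairpin arrays lay below shLuc by little, and shDNMT1#2 alone was called (-0.31 ± 0.11, adjusted p = 0.0401). HJURP, the chaperone that deposits CENPA, had 6.43 and 6.33 in shDNMT1#2, 6.84 and 6.80 in shDNMT1#1, 6.55 and 6.55 in shHDAC3#2, 6.85 and 6.75 in shHDAC3#1, against 7.29 and 7.30 in shLuc. No hairpin array overlapped shLuc. HJURP fell in all 4 groups, with changes of -0.91 ± 0.10 in shDNMT1#2, -0.47 ± 0.10 in shDNMT1#1, -0.75 ± 0.10 in shHDAC3#2 and -0.50 ± 0.10 in shHDAC3#1. MIS18A, which primes centromeres for CENPA, was called lower in all 4 groups, with 1.97 in shHDAC3#2 as the largest fall of any member, and 1.01, 0.87 and 0.38 in shDNMT1#2, shDNMT1#1 and shHDAC3#1. OIP5, its partner MIS18B, fell in shDNMT1#2, shHDAC3#2 and shHDAC3#1, and all 4 changes lay between -0.93 and -0.41. CENPK, of the constitutive network on CENPA chromatin, had 5.27 and 5.27 in shDNMT1#2, 6.10 and 5.79 in shDNMT1#1, 5.23 and 5.36 in shHDAC3#2, 6.05 and 5.97 in shHDAC3#1, against 6.76 and 6.64 in shLuc. All hairpin arrays were below shLuc. CENPK fell in all 4 groups, with changes of -1.43 ± 0.12 in shDNMT1#2, -0.75 ± 0.12 in shDNMT1#1, -1.40 ± 0.12 in shHDAC3#2 and -0.68 ± 0.12 in shHDAC3#1, the lowest mean of the centromere genes. CENPI, of the same network, had 5.83 and 5.96 in shDNMT1#2, 6.10 and 5.71 in shDNMT1#1, 5.88 and 5.74 in shHDAC3#2, 5.70 and 6.09 in shHDAC3#1, against 5.39 and 5.80 in shLuc. It was the only centromere gene with a change above 0 in every group, between 0.22 and 0.31, and none was called. CENPN, which binds CENPA nucleosomes, had 6.61 and 6.74 in shDNMT1#2, 6.84 and 6.92 in shDNMT1#1, 6.22 and 6.50 in shHDAC3#2, 7.01 and 6.71 in shHDAC3#1, against 7.18 and 6.93 in shLuc. The shHDAC3#1 arrays overlapped shLuc. CENPN was called in shDNMT1#2 (-0.38 ± 0.13) and shHDAC3#2 (-0.70 ± 0.13), and a dimmer probe set gave -1.54 in shDNMT1#2, -0.96 in shDNMT1#1, -0.60 in shHDAC3#2 and -0.11 in shHDAC3#1. Of the other network members, CENPH fell in all 4 groups (between -1.06 and -0.54), CENPU in 3 (between -1.30 and -0.54) and CENPM in shDNMT1#2 (-0.39 ± 0.10) and shHDAC3#2 (-0.32 ± 0.10). A dimmer CENPU probe set gave -0.08 in shDNMT1#2, 0.04 in shDNMT1#1, -0.22 in shHDAC3#2 and 0.16 in shHDAC3#1, and the dimmest gave -0.63 in shDNMT1#2, -0.03 in shDNMT1#1, -0.32 in shHDAC3#2 and 0.55 in shHDAC3#1.

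The chromosomal passenger complex, which corrects faulty attachments, has 4 genes here: 3 fell in shDNMT1#2, 1 in shDNMT1#1, 2 in shHDAC3#2 and 1 in shHDAC3#1. The last is 25%, against 16.6% of all genes, and the median change of the 4 genes in shHDAC3#1 was 0.06. CDCA8, borealin, had 7.26 and 7.04 in shDNMT1#2, 7.60 and 7.47 in shDNMT1#1, 7.22 and 7.27 in shHDAC3#2, 7.60 and 7.61 in shHDAC3#1, against 8.21 and 7.84 in shLuc. No hairpin array overlapped shLuc, and it fell in all 4 groups, with changes of -0.88 ± 0.12 in shDNMT1#2, -0.49 ± 0.12 in shDNMT1#1, -0.78 ± 0.12 in shHDAC3#2 and -0.42 ± 0.12 in shHDAC3#1. AURKB, the kinase of the complex, had 6.32 and 6.17 in shDNMT1#2, 6.79 and 6.68 in shDNMT1#1, 6.11 and 6.14 in shHDAC3#2, 6.59 and 6.70 in shHDAC3#1, against 6.58 and 6.54 in shLuc. The shDNMT1#1 and shHDAC3#1 arrays lay above shLuc, and shDNMT1#2 and shHDAC3#2 below it. AURKB was called in shDNMT1#2 (-0.32 ± 0.11) and shHDAC3#2 (-0.44 ± 0.11), while a second probe set gave 0.17 in shDNMT1#2, 0.44 in shDNMT1#1, 0.21 in shHDAC3#2 and 0.40 in shHDAC3#1. BIRC5, survivin, had 7.47 and 7.47 in shDNMT1#2, 7.84 and 7.80 in shDNMT1#1, 7.48 and 7.57 in shHDAC3#2, 7.81 and 8.14 in shHDAC3#1, against 7.84 and 7.85 in shLuc. It was below shLuc in shDNMT1#2 and shHDAC3#2 and overlapped it in the other groups, with a call in shDNMT1#2 alone (-0.37 ± 0.11). A second BIRC5 probe set of similar brightness gave -0.96 in shDNMT1#2, -0.18 in shDNMT1#1, -0.84 in shHDAC3#2 and -0.03 in shHDAC3#1. A dimmer one gave -0.10, 0.04, -0.38 and -0.05 in the same order, and the dimmest -0.26, 0.51, -0.02 and 0.95. The BIRC5 changes thus depended on the probe set. INCENP, the scaffold, had 5.94 and 5.77 in shDNMT1#2, 6.10 and 6.08 in shDNMT1#1, 5.80 and 6.10 in shHDAC3#2, 6.15 and 6.19 in shHDAC3#1, against 6.08 and 6.17 in shLuc. It was below shLuc in shDNMT1#2, overlapped it elsewhere, and was not called.

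All 6 genes of the mitotic chromosome fell in shDNMT1#2 and in shHDAC3#2, with 4 in shDNMT1#1 and 2 in shHDAC3#1. The last is 33.3%, against 16.6% of all genes. TOP2A, the topoisomerase that untangles sister DNA, had 7.41 and 7.37 in shDNMT1#2, 8.76 and 8.30 in shDNMT1#1, 7.34 and 7.54 in shHDAC3#2, 8.59 and 8.94 in shHDAC3#1, against 9.04 and 8.77 in shLuc. The shDNMT1#2 and shHDAC3#2 arrays lay far below the rest, shDNMT1#1 lay just below shLuc, and shHDAC3#1 overlapped it. Its changes were -1.52 ± 0.14 in shDNMT1#2, -0.38 ± 0.14 in shDNMT1#1, -1.47 ± 0.14 in shHDAC3#2 and -0.15 ± 0.14 in shHDAC3#1, with no call in shDNMT1#1 or shHDAC3#1. MKI67, the Ki-67 protein that coats mitotic chromosomes, had 6.86 and 6.84 in shDNMT1#2, 7.61 and 7.36 in shDNMT1#1, 6.63 and 6.61 in shHDAC3#2, 7.74 and 8.11 in shHDAC3#1, against 8.29 and 7.81 in shLuc. Here too shHDAC3#1 overlapped shLuc and the other groups lay below it, with shDNMT1#1 also called. MKI67 changed by -1.20 ± 0.14 in shDNMT1#2, -0.56 ± 0.14 in shDNMT1#1, -1.43 ± 0.14 in shHDAC3#2 and -0.12 ± 0.14 in shHDAC3#1. Its dimmer probe sets gave smaller falls: -0.85, -0.29 and -0.60 in shDNMT1#2, and -0.32, -0.33 and -0.38 in shDNMT1#1. They gave -0.84, -0.53 and -0.64 in shHDAC3#2, and 0.0075, 0.21 and 0.27 in shHDAC3#1. SMC4, a core subunit of condensin, had 9.29 and 9.21 in shDNMT1#2, 10.24 and 9.95 in shDNMT1#1, 9.19 and 9.30 in shHDAC3#2, 10.22 and 10.38 in shHDAC3#1, against 10.33 and 10.42 in shLuc. It overlapped shLuc in shHDAC3#1, and fell in shDNMT1#2 (-1.13 ± 0.10) and shHDAC3#2 (-1.13 ± 0.10). A second SMC4 probe set gave -1.32 in shDNMT1#2, -0.59 in shDNMT1#1, -1.35 in shHDAC3#2 and -0.31 in shHDAC3#1. The dimmest gave -0.0068, 0.23, 0.0537 and 0.33 in the same order. SMC2, the partner of SMC4, fell in all 4 groups, between -0.89 and -0.67, as did NCAPG, a condensin I subunit, between -1.20 and -0.38. NCAPH, which closes the condensin I ring, fell in all but shHDAC3#1, between -0.89 and -0.58.

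The hairpins of 1 target were then set against each other. The difference itself leaves out shLuc, although the model's estimate of spread includes the shLuc arrays. Between shHDAC3#2 and shHDAC3#1, 34 members were lower in shHDAC3#2 and 0 higher, where 3.75% of all genes were called lower and 8.85% higher. The median member difference was -0.51. MIS18A differed most (-1.58 ± 0.13), followed by TOP2A (-1.32 ± 0.14), MKI67 (-1.31 ± 0.14) and CDK1 (-1.28 ± 0.11), whereas TTK (-0.19 ± 0.13) and SKA2 (-0.22 ± 0.12) were not called. Between shDNMT1#2 and shDNMT1#1, 32 members were lower in shDNMT1#2 and 1 higher, where 8.39% of all genes were called lower and 3.57% higher. The median difference was -0.38. SPC25 (-1.51 ± 0.14), CDK1 (-1.30 ± 0.11) and TOP2A (-1.14 ± 0.14) differed most, CDC25B was higher in shDNMT1#2 (0.35 ± 0.11, adjusted p = 0.0393), and CCNA2 was not called (-0.12 ± 0.12, 95% interval -0.36 to 0.13). With the SD of each array as a covariate, 4 members differed between the DNMT1 hairpins and 35 between the HDAC3 hairpins. With only the compared arrays in the model, 28 and 35 members differed.

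**Figure D5:**
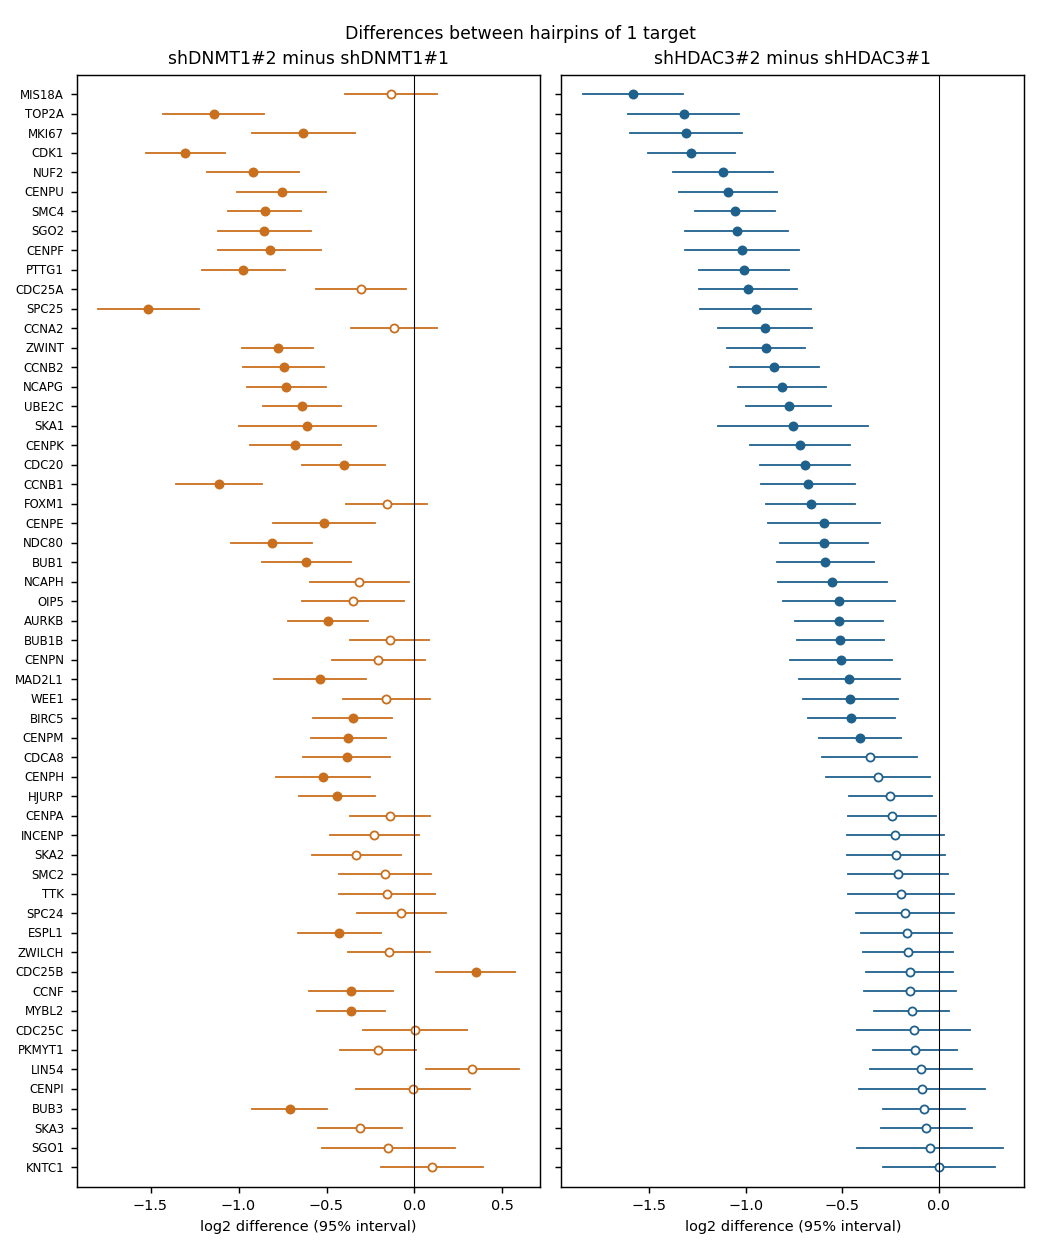
Log2 difference between hairpins of 1 target for the 56 members, with 95% intervals, ordered by the difference between the HDAC3 hairpins, and filled points where called. Most points lie left of 0, with 32 members called lower in shDNMT1#2 than in shDNMT1#1 and 34 in shHDAC3#2 than in shHDAC3#1.

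Set against each other as means of 2 hairpins, the DNMT1 and HDAC3 knockdowns differed in 6 members, 5 lower and 1 higher with the DNMT1 hairpins, where 3.59% of all genes were called lower and 6% higher. CCNA2 (-0.48 ± 0.08), CDK1 (-0.46 ± 0.08), CENPF (-0.38 ± 0.10), CCNB1 (-0.35 ± 0.08) and BUB3 (-0.32 ± 0.07) were lower, and SKA2 was higher (0.45 ± 0.09, adjusted p = 0.00115). The median difference of the members was -0.01. In this comparison target and batch cannot be told apart. When hairpins were entered as a random block, so that those of 1 target may vary, limma called 0 members.

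Of 70 measured genes that act beside these members, 38 fell in shDNMT1#2, 22 in shDNMT1#1, 34 in shHDAC3#2 and 37 in shHDAC3#1, and 1, 0, 0 and 4 rose. The shares that fell were 54.3%, 31.4%, 48.6% and 52.9%, where 15.2%, 6.81%, 9.54% and 16.6% of all genes were called lower. Cohesin and its regulators, which hold sister chromatids together, fell in 11 of 12 cases in shDNMT1#2, 4 in shDNMT1#1, 6 in shHDAC3#2 and 11 in shHDAC3#1, with RAD21 lowest in shDNMT1#2 at -1.35 and PDS5A in shHDAC3#1 at -1.03. The anaphase-promoting complex and its regulators fell in 7, 5, 6 and 10 of 16 cases in the same order of groups, with CDC23 lowest in shHDAC3#1 at -1.44. The list of Greatwall kinase, its substrates, PP2A-B55 subunits and other regulators of mitotic entry fell in 8, 5, 8 and 7 of 11 cases. The lowest of these were ARPP19 at -1.99 in shDNMT1#2 and MASTL at -1.49 in shDNMT1#1 and -1.30 in shHDAC3#2. Further kinetochore, centromere and checkpoint genes fell in 6, 5, 7 and 5 of 18 cases. The other condensin genes fell in 3, 2, 3 and 1 of 4 cases, the last being 25% against 16.6% of all genes. Other DREAM and MuvB genes fell in 3, 1, 4 and 3 of 9 cases, and the 1 case in shDNMT1#1 is 11.1% against 6.81% of all genes. In this list RBL2 was lowest in shDNMT1#2 (-0.79), shHDAC3#2 (-0.78) and shHDAC3#1 (-1.09).

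Different probe sets of a gene did not always move alike, and those given beside single genes were chosen after their values were seen. Of the 56 members, 29 had more than 1 probe set, which gave 55 further probe sets, 36 of them with a mean signal over 5. Of those 36, 29 had a mean change below 0 against shLuc in shDNMT1#2, 25 in shDNMT1#1, 31 in shHDAC3#2 and 22 in shHDAC3#1. Of all 19775 genes, 38.3%, 39.4%, 39.5% and 40.6% had a change below 0 in the same order. For 23 members the probe set used is of a kind that can cross-hybridize, judged only by its name ending (_x_at, _s_at or _a_at). Such an ending can also mark transcripts of 1 gene, and cross-hybridization itself was not measured.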

How the data were processed

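The authors deposited log2 signals for 54675 probe sets on each of 10 arrays. Per the submitters' processing notes they come from RMA, which removes background, quantile-normalizes the arrays and summarises probes. The sources used here give neither its version nor whether all arrays went through it together. Signals near background change little with RNA amount, so changes of dim genes can be understated. The number of arrays limits the precision.

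The platform annotation gave 1 symbol to 41097 probe sets, several to 1801 and none to 11777. Each of 19775 genes was represented by the single-symbol probe set whose mean over 10 arrays was highest. One limma model (limma 3.58.1, R 4.3.3, eBayes with trend) held 5 groups of 2 arrays, with 5 residual degrees of freedom. Tests were two-sided, Benjamini-Hochberg adjusted over all genes per comparison and called at 0.05; ± is limma's SE, and 95% intervals come from the same model.

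The members, the pathway and marker lists and the promoter words were chosen with earlier results of these data known. Genes given in every array were set by a written list and by the lowest and highest mean change in each role; all members are named. Simulated data had 100 genes lowered by 0.5 and 100 by 1 (log2), with normal noise from the model's own variances. The test recovered 72% and 100% for shDNMT1#2, 72% and 100% for shDNMT1#1, 62% and 100% for shHDAC3#2, and 68% and 100% for shHDAC3#1. False calls were 9 of 181, 14 of 186, 7 of 169 and 12 of 180 in the same order. These runs had the same design and differ by random draw only. Many more genes were called in the data, so the shares may not hold there. Replicate numbers did not pair the arrays: the correlation of deviations between same-numbered arrays ran between -0.343 and 0.266 over 10 pairs of groups, 2 of them over 0.1. Arrays of 1 group correlated with r between 0.9937 and 0.9963, and none was a duplicate of another. Promoters come from RefSeq (GRCh38.p14); 11 members had none in the table. The rule for genes with several starts was added after values had been seen, and 3 rules are given. Alternatives were to drop dim genes, to average the probe sets of each gene, to drop probe sets that can cross-hybridize, further quantile normalization, median centring, eBayes without trend, array weights, only the compared arrays, a replicate block, the array SD as a covariate, the hairpin as a random block, and leaving out each array.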

Additional observations from a re-analysis of the deposited data

Results flagged for a closer look

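Hairpins against the same target gave unlike changes of these genes. Between shDNMT1#2 and shDNMT1#1, 33 of 56 members differed at an adjusted p under 0.05 in limma, 32 of them lower in shDNMT1#2, and between shHDAC3#2 and shHDAC3#1, 34 differed, all of them lower in shHDAC3#2. Both were found by the test of the difference itself. Mean DNMT1 signal was 6.17 in shDNMT1#2 and 5.88 in shDNMT1#1, and mean HDAC3 signal 5.67 in shHDAC3#2 and 5.85 in shHDAC3#1. The 3' minus 5' signal of ACTB was 0.74 and 0.74 in shHDAC3#2, and 0.98 and 1.02 in shHDAC3#1. Its part in the difference was not tested.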

How the results depend on the processing

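The median member change against shLuc stayed below 0 in all 4 hairpin groups when any 1 array was left out, but with the array SD as a covariate it was 0.06 in shHDAC3#1, beside -0.37 in shDNMT1#2, -0.18 in shDNMT1#1 and -0.68 in shHDAC3#2. Leaving out 1 array at a time gave 39 to 47 members called lower in shDNMT1#2, 7 to 33 in shDNMT1#1, 37 to 44 in shHDAC3#2 and 8 to 28 in shHDAC3#1. It gave 22 to 32 members that differed between the DNMT1 hairpins, 24 to 35 between the HDAC3 hairpins and 4 to 7 between the knockdowns. With the array SD as a covariate, the members called lower were 1 in shDNMT1#2, 2 in shDNMT1#1, 23 in shHDAC3#2 and 0 in shHDAC3#1, and those that differed were 4 between the DNMT1 hairpins, 35 between the HDAC3 hairpins and 9 between the knockdowns. Both shLuc arrays have a larger SD than any hairpin array, so this term takes up part of the difference between the groups by construction. With the hairpin as a random block (correlation 0.351), 0 members differed between the knockdowns.

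The replicate block, tried although the numbers do not pair the arrays, gave 46, 27, 42 and 22 members called lower in shDNMT1#2, shDNMT1#1, shHDAC3#2 and shHDAC3#1, and 33, 35 and 6 that differed between the DNMT1 hairpins, the HDAC3 hairpins and the knockdowns. Further quantile normalization gave 9 members between the knockdowns.

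Among changes called either as reported or under the alternative, some turned sign under 3 alternatives, and the cause was not tested. Changes called in neither, such as CENPU in shHDAC3#1 (0.20 with the mean of its probe sets), also turned sign under these and other alternatives. Without probe sets that by their name ending can cross-hybridize, 44 members were left, and the log2 change turned for CCNB1 (0.22) and CENPU (0.55) in shHDAC3#1, BUB3 (0.0888) in shHDAC3#2, BUB3 (0.17) in shDNMT1#2, BUB3 (0.0316) and CENPF (0.13) between the DNMT1 hairpins, and CENPN (-0.89) between the knockdowns. After further quantile normalization PTTG1 was at 0.0314 in shHDAC3#1. With the array SD as a covariate it turned for CCNA2 (0.0167), CCNB2 (0.0528), BUB1 (0.19), MAD2L1 (0.0633), PTTG1 (0.33), NUF2 (0.16), ZWILCH (0.066), CENPH (0.0814), MIS18A (0.25), OIP5 (0.30), CDCA8 (0.0175) and NCAPG (6e-04) in shHDAC3#1, CDC25A (0.17), WEE1 (0.0197), ZWILCH (0.05), OIP5 (0.14), AURKB (0.0422) and BIRC5 (0.0696) in shDNMT1#2, and CENPH (0.0986) between the DNMT1 hairpins.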
